A study of Homo sapiens with 10 samples.

Results

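The genes of the ATF4 and amino acid stress response were described in RNA-Seq data of EA.hy926 cells that had lost 1 of 2 long noncoding RNAs (lncRNAs). They were taken by symbol from a list of 38 genes, with the transcript of the highest mean level for each symbol. All 38 were found among the 27945 symbols of the deposited table. A level of at least 1 cpm (reads scaled to the size of the library) in at least 2 libraries was reached by 36 of them, and these were tested together with all other genes that reached it, 13333 in total. *VLDLR* and *JDP2* did not reach it, with levels of at most 0.088 and 0.018 FPKM in any library.

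EA.hy926 is an established line made by fusing human umbilical vein endothelial cells with the lung carcinoma line A549. The promoter of *VEGFA-LNC* or of *VEGFC-LNC*, lncRNAs from the neighborhoods of the growth factor genes *VEGFA* and *VEGFC*, was removed with CRISPR/Cas9, and homozygous clones were picked. The 10 libraries came from 3 clones without *VEGFA-LNC*, 3 clones without *VEGFC-LNC* and, as 2 libraries per set, the controls that belong to each. Control cells had been given the guide RNAs but no Cas9, and they passed through clonal selection as well. Each deletion clone is a single clonal line. Nothing in the sources used here says whether the controls of a set are separate clones or cultures, so that p-values measure the spread between these libraries, which for the controls may be technical. No symbol in the table carries the name of either lncRNA, and the deletions were not checked from these values.

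ATF4 is a transcription factor whose mRNA is translated more efficiently when the initiation factor eIF2α is phosphorylated, as happens when amino acids are scarce or unfolded proteins accumulate. It pairs with C/EBP family proteins and turns on genes for amino acid synthesis, amino acid uptake and the charging of tRNAs. When the stress lasts, ATF4 also turns on *DDIT3* (CHOP), *ATF3* and *TRIB3*, and the CHOP target *PPP1R15A* (GADD34) leads the phosphatase that reverses eIF2α phosphorylation. In endothelial cells this response is known from amino acid limitation, oxidized lipids and the control of *VEGFA*.

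ATF4 and its C/EBP partners bind a composite element, the C/EBP-ATF response element, whose core was searched as TGATGNAA on both strands. Windows of 250 bases before to 50 bases after the start site were at hand from RefSeq (GRCh38.p14) for 32 of the 38 genes. The core was found in 13 of these 32 genes (40.6%), against 4.46% of the 27305 genes with a window, and in 13 of their 55 windows (23.6%), against 3.62% of all 35116 windows of this length. The genes were listed for their place in the ATF4 response, so that these shares are a description and not a test. The following stretches lie upstream of a start site of the gene and hold the core in capitals, either as written or as its reverse complement. They are given for *ATF3*, *CHAC1* and *ASNS*, on which much of the results turn, and for the glutamine carrier *SLC1A5*. Windows at the other start sites of *ATF3*, *ASNS* and *SLC1A5* did not hold the core. The start sites were not matched to the transcripts measured here. A match of letters does not show that the site is used.
ATF3 (chr1:212565190-212565249, + strand, first base of the core 191 bases upstream): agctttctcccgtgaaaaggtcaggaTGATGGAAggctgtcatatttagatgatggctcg
CHAC1 (chr15:40953236-40953295, + strand, reverse complement, 209 bases upstream): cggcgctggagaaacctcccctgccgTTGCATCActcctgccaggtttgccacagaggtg
ASNS (chr7:97872443-97872502, − strand, 68 bases upstream): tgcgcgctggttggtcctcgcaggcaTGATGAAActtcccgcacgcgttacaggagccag
SLC1A5 (chr19:46784878-46784937, − strand, 97 bases upstream): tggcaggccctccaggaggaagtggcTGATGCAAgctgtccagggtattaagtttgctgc
The other genes with the core were *CEBPG*, *JDP2*, *GARS*, *IARS*, *SLC1A4*, *SLC7A1*, *SLC3A2*, *NARS* and *TARS*. The windows of *DDIT3*, *PPP1R15A*, *GDF15*, *TRIB3* and *SESN2* did not hold these letters.

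The authors deposited FPKM values, which are scaled to transcript length and library size, so that levels can be compared between genes. The libraries held between 6743973 and 24197604 reads. The fewest were in the third *VEGFC-LNC* deletion clone. The test was limma's, on log2(FPKM + 0.1), with all 10 libraries in 1 fit of 4 groups and a Benjamini-Hochberg false-discovery rate (FDR) over the 13333 genes. A gene was called when its FDR was under 0.05 and its fold change (FC) at least 1.5 in either direction. An FC on this scale understates the change of low genes. An exact permutation test of 3 clones against 2 controls has 10 splits and cannot give a two-sided p below 0.1, so that single genes were not tested that way.

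All 10 endothelial markers examined passed the filter, with summed levels from 360.7 to 926.3 FPKM in the *VEGFA-LNC* deletion clones, 479 to 981.7 FPKM in the *VEGFC-LNC* deletion clones, 558.1 to 569.2 FPKM in the *VEGFA-LNC* controls and 471.6 to 484.3 FPKM in the *VEGFC-LNC* controls. The sums hide low genes, such as *KDR* at 0.036 to 0.164 FPKM in the 4 controls, and differences between clones. *EMCN* was at 4.83 to 6.74 FPKM in the 4 controls and at 0.022 to 1.54 FPKM in the 6 clones, with log2 FCs of −3.64 (FDR 0.0609) upon *VEGFA-LNC* deletion and −5.08 (FDR 0.0467) upon *VEGFC-LNC* deletion, and *PECAM1* was at 13.9, 159 and 56.1 FPKM in *VEGFA-LNC* deletion clones 1, 2 and 3. Of 8 lung epithelial and keratin markers, 5 stayed below 1 FPKM in every library and *NKX2-1* was listed at 0, while the keratins *KRT7*, *KRT8* and *KRT18* were abundant. The summed level of the 8 was 1077 to 1087 FPKM in the *VEGFA-LNC* controls, 898 to 911.3 FPKM in the *VEGFC-LNC* controls, 486.8 to 1311 FPKM in the *VEGFA-LNC* deletion clones and 438.9 to 866.4 FPKM in the *VEGFC-LNC* deletion clones. The 5 leukocyte markers all stayed below 1 FPKM. Of 6 fibroblast and smooth muscle markers, 5 stayed below 1 FPKM, and the summed level of the 6 was 20.45 to 20.85 FPKM in the *VEGFA-LNC* controls, 1.13 to 1.58 FPKM in the *VEGFC-LNC* controls, 8.55 to 60.4 FPKM in the *VEGFA-LNC* deletion clones and 1.57 to 19.6 FPKM in the *VEGFC-LNC* deletion clones. Most of this sum was *ACTA2*, at 19.8 and 19.5 FPKM in the *VEGFA-LNC* controls and 0.95 and 0.659 FPKM in the *VEGFC-LNC* controls. For *ACTA2* the control sets differed by −4.47 on the log2 scale (FDR 0.0412). The part of all these markers in the results was not tested.

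The mean of most of these genes lay below that of the controls upon *VEGFA-LNC* deletion and above it upon *VEGFC-LNC* deletion, but few differences passed the test. Upon *VEGFA-LNC* deletion, 34 of 36 had a negative log2 FC, with a median of −0.44 against −0.06 for all tested genes. The genes called were *ATF3*, *DDIT3* and *PPP1R15A*, all 3 lower, where 2.02% of all tested genes were called lower. In 16 of the 36 genes all clones lay below both controls, which held for 23.7% of all tested genes. In 0 of the 36 did all clones lie above both, against 2045 of all 13333 tested genes. Upon *VEGFC-LNC* deletion, 30 of 36 had a positive log2 FC, with a median of 0.43 against −0.09 for all tested genes. *GDF15* was the only gene of the response called, and it was higher, where 0.15% of all tested genes were called higher. All clones lay above both controls in 12 of the 36 genes, against 17.2% of all tested genes. They lay below both in 0 of the 36, against 4082 of all 13333 tested genes. In bulk RNA, fewer cells that express a gene and less RNA per cell cannot be told apart.

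The largest differences lay between the controls of the 2 sets. The *VEGFC-LNC* controls had the lower mean in 33 of 36 genes, with a median log2 difference of −0.70, where the median of all tested genes was −0.11. Scaling the libraries by the median of ratios moves that median, and 29 of 36 were then lower. The test called 9 of the 36 lower (*ATF3*, *DDIT3*, *CHAC1*, *SESN2*, *SLC3A2*, *CEBPB*, *GDF15*, *PPP1R15A* and *SARS*), where it called 9.76% of all tested genes lower. Both *VEGFC-LNC* controls lay below both *VEGFA-LNC* controls in 30 of the 36, against 49.2% of all tested genes. The comparison of the control sets and each comparison of clones with controls share libraries, so that a gene that is high in the *VEGFA-LNC* controls enters both with that level. The label of the set and any difference in the handling of the sets cannot be told apart.

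**Figure D1:**
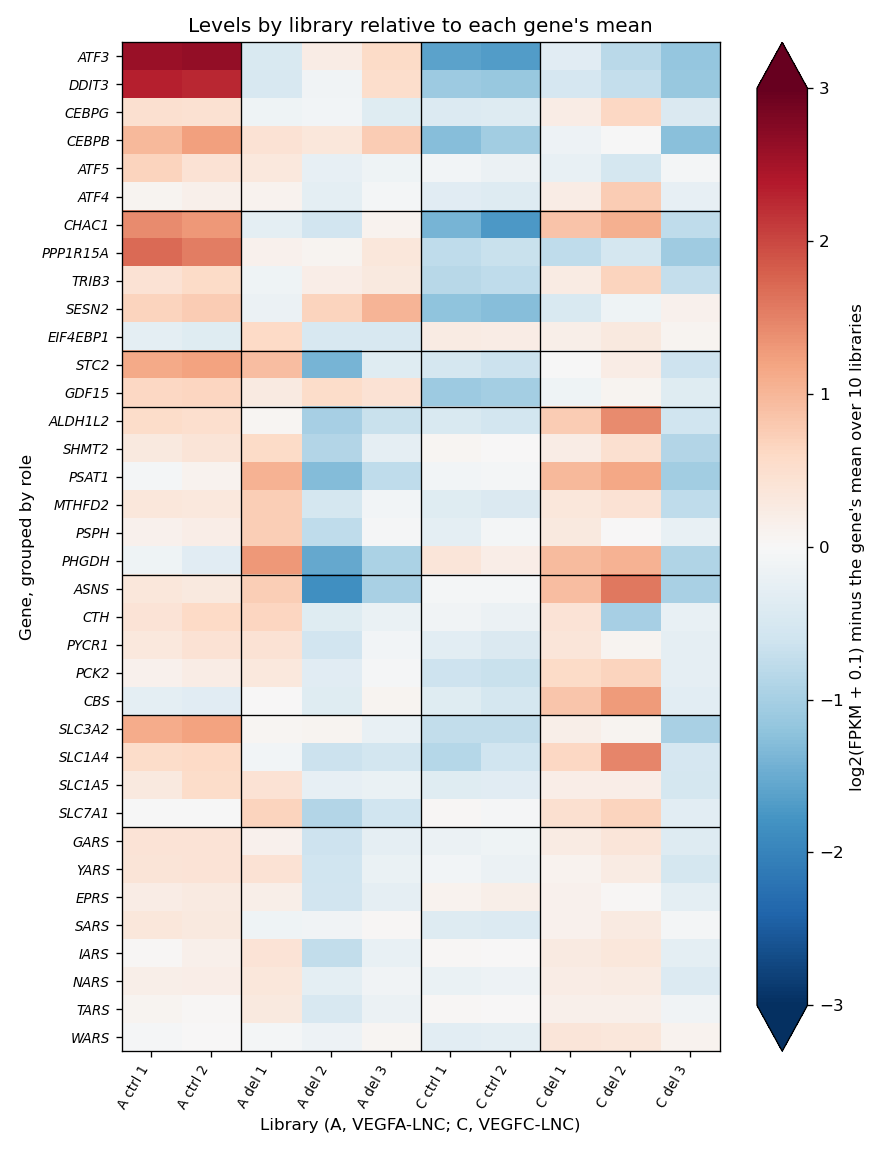
Heat map of the 36 tested genes (rows, grouped by role) in the 10 libraries (columns). Color gives log2(FPKM + 0.1) minus the mean of the gene over the libraries, red for higher and blue for lower, and values past the ends of the scale are drawn in the end color. *ATF3* and *DDIT3* are darkest in the 2 *VEGFA-LNC* controls, and the enzyme and synthetase genes differ mainly from clone to clone.

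*ATF4* itself, the regulator that names the response, was among the most abundant of these genes. It was expressed at 126 and 131 FPKM in the *VEGFA-LNC* controls and at 128, 96.5 and 114 FPKM in *VEGFA-LNC* deletion clones 1, 2 and 3. In the *VEGFC-LNC* controls it was at 93.6 and 90.2 FPKM, and in the clones of that deletion at 138, 202 and 100.2 FPKM. The *VEGFA-LNC* deletion clones overlapped their controls, while the *VEGFC-LNC* deletion clones all lay above theirs. Neither difference passed the test, with a log2 FC of −0.20 (95% interval −0.79 to 0.39, FDR 0.725) upon *VEGFA-LNC* deletion and of 0.62 (0.03 to 1.21, FDR 0.253) upon *VEGFC-LNC* deletion. These values are mRNA levels, and the translation of *ATF4* was not measured.

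*ATF3*, a stress-induced repressor and activator that ATF4 turns on, changed the most upon *VEGFA-LNC* deletion. Its level was 85.1 and 87.5 FPKM in the *VEGFA-LNC* controls and 10.2, 16.5 and 21.0 FPKM in the clones, and the log2 FC was −2.49 (SE 0.31, FDR 0.00794). In the *VEGFC-LNC* set it was 4.51 and 4.36 FPKM in the controls and 11.0, 7.99 and 6.27 FPKM in the clones. The 2 *VEGFA-LNC* controls stood far above the 8 other libraries, and all clones of both deletions lay between the 2 control sets. The log2 FC of 0.87 upon *VEGFC-LNC* deletion did not pass the test (95% interval 0.18 to 1.57, FDR 0.197). The mean of the *VEGFA-LNC* controls was 19.5 times that of the *VEGFC-LNC* controls, a log2 difference of −4.25 for the *VEGFC-LNC* controls (SE 0.33, FDR 0.00137).

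*DDIT3*, which encodes the pro-apoptotic factor CHOP, had the same order of group means. It stood at 110.0 and 104 FPKM in the *VEGFA-LNC* controls and at 15.5, 20.0 and 31.4 FPKM in the clones, with a log2 FC of −2.32 (SE 0.28, FDR 0.0077). The *VEGFC-LNC* controls had 10.2 and 9.79 FPKM and the clones 15.2, 13.1 and 9.82 FPKM. The third of these clones lay between its controls, and the log2 FC of 0.32 did not pass the test (95% interval −0.31 to 0.96, FDR 0.533). *DDIT3* is placed on hg19 chromosome 12 from 57910371 to 57914300, in a stretch where the 207 other tested genes within 10 Mb had a median log2 FC of −0.41 upon *VEGFC-LNC* deletion and of −0.02 upon *VEGFA-LNC* deletion. Its 3′ end overlaps that of *MARS* on the other strand, and whether strand was used in counting is not given for this table. *MARS* was at 61.9 and 65.9 FPKM in the *VEGFA-LNC* controls and at 66.1, 45.0 and 59.1 FPKM in the clones.

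*PPP1R15A*, the eIF2α phosphatase subunit GADD34, was called lower upon *VEGFA-LNC* deletion as well. Its level was 107 and 96.1 FPKM in the controls and 36.3, 35.1 and 41.6 FPKM in the clones, which gave a log2 FC of −1.43 (SE 0.17, FDR 0.00685). In the *VEGFC-LNC* set, the controls at 19.5 and 20.6 FPKM and the clones at 19.4, 23.0 and 15.7 FPKM overlapped. There the log2 FC was −0.07, with a 95% interval from −0.45 to 0.31. The calls of *ATF3*, *DDIT3* and *PPP1R15A* upon *VEGFA-LNC* deletion held in 14 of 19 alternative analyses. They were lost when either *VEGFA-LNC* control was left out, when each pair of controls was counted as 1 sample, when the fit held the 2 groups alone and when all 4 controls formed 1 group, where the log2 FCs were −0.36, −0.61 and −0.27.

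**Figure D2:**
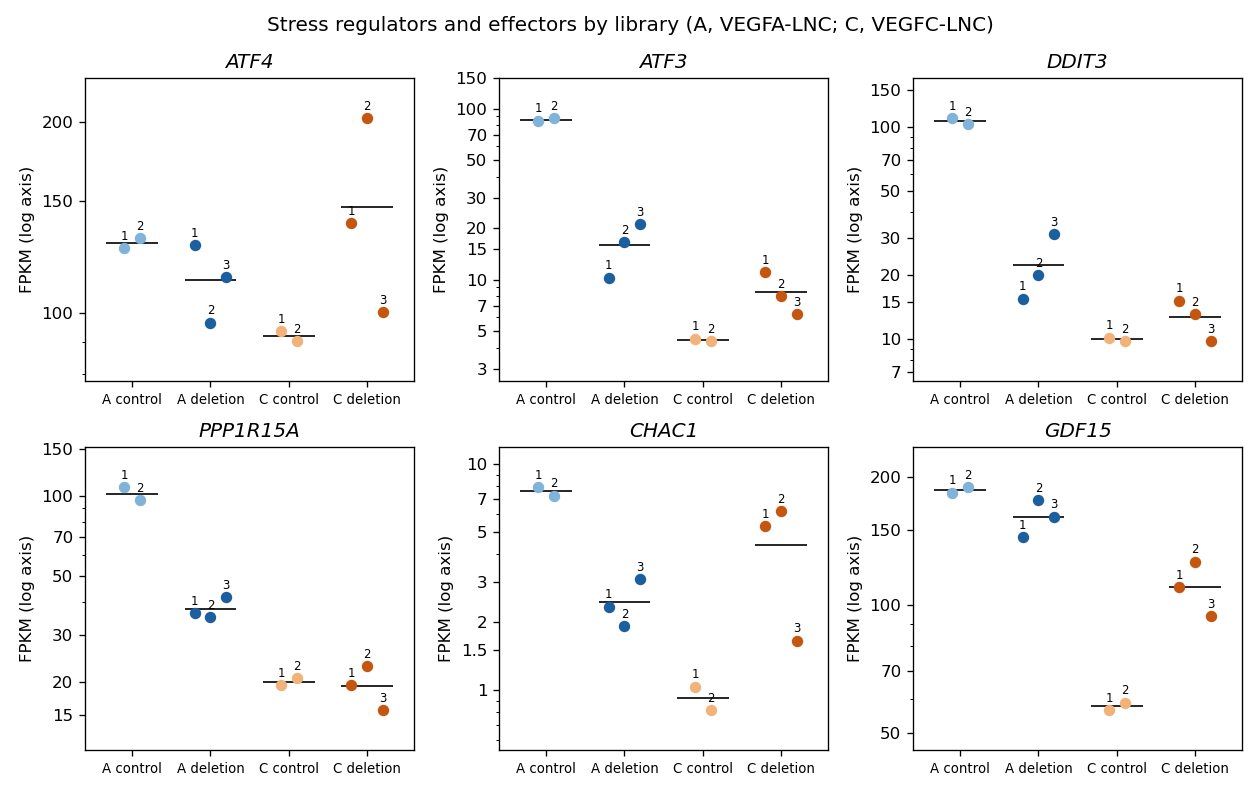
Levels of *ATF4*, *ATF3*, *DDIT3*, *PPP1R15A*, *CHAC1* and *GDF15* in FPKM on a log axis, with 1 point per library (numbered by replicate) and a line at the mean of each group. The 2 *VEGFA-LNC* controls lie above all other libraries for *ATF3*, *DDIT3*, *PPP1R15A*, *CHAC1* and *GDF15*, but not for *ATF4*.

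The other transcription factors followed with smaller differences. *CEBPB*, a C/EBP family partner of ATF4, was at 21.0 and 25.2 FPKM in the *VEGFA-LNC* controls and at 14.5, 13.5 and 18.2 FPKM in the clones. In the *VEGFC-LNC* set it was at 4.30 and 5.09 FPKM in the controls and at 9.54, 10.6 and 4.37 FPKM in the clones, so that the third clone lay between the controls. Neither deletion passed the test for *CEBPB*, with FDRs of 0.382 and 0.304, but the control sets differed by −2.28 on the log2 scale (SE 0.37, FDR 0.00972). *CEBPG*, another heterodimer partner, and *ATF5*, a related factor that is also controlled by eIF2α phosphorylation, had log2 FCs of −0.67 and −0.57 upon *VEGFA-LNC* deletion and of 0.54 and −0.14 upon *VEGFC-LNC* deletion. None of these 4 values passed the test. *JDP2*, a repressor of the same family, had at most 1 read in any library.

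*CHAC1*, which degrades glutathione and is a sensitive target of ATF4, was the gene with the largest difference between the effects of the 2 deletions. It stood at 7.90 and 7.28 FPKM in the *VEGFA-LNC* controls and at 2.34, 1.92 and 3.10 FPKM in the clones, with all clones below both controls. In the *VEGFC-LNC* set it stood at 1.04 and 0.815 FPKM in the controls and at 5.34, 6.18 and 1.66 FPKM in the clones, with all clones above both controls. The *VEGFC-LNC* controls held 15 and 30 reads of *CHAC1*, so that these values carry more counting error than most. The log2 FC was −1.61 (SE 0.49, FDR 0.117) upon *VEGFA-LNC* deletion and 1.94 (SE 0.49, FDR 0.112) upon *VEGFC-LNC* deletion. Neither passed the test, while their difference of 3.55 did (95% interval 1.99 to 5.11, FDR 0.0464), in 6 of 17 alternatives as well.

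*TRIB3* encodes a pseudokinase that binds ATF4 and CHOP and dampens the response, and *SESN2* a leucine-sensing inhibitor of mTORC1. *TRIB3* had 61.5 and 68.6 FPKM in the *VEGFA-LNC* controls, 42.1, 52.6 and 56.2 FPKM in the clones, 25.7 and 27.1 FPKM in the *VEGFC-LNC* controls and 54.1, 73.3 and 27.7 FPKM in the clones. The third *VEGFC-LNC* deletion clone stayed close to the controls while the 2 others were well above them. *SESN2* had 19.5 and 20.7 FPKM in the *VEGFA-LNC* controls, 10.7, 19.2 and 24.6 FPKM in the clones, 5.15 and 4.98 FPKM in the *VEGFC-LNC* controls and 8.86, 11.0 and 13.2 FPKM in the clones. Here the third *VEGFC-LNC* deletion clone was the highest of its set, against the order of most of these genes. The FDR upon *VEGFC-LNC* deletion was 0.238 for *TRIB3* (log2 FC 0.86) and 0.145 for *SESN2* (log2 FC 1.09), and the control sets differed by −1.97 for *SESN2* (SE 0.34, FDR 0.0119). *EIF4EBP1*, a repressor of cap-dependent translation and a direct ATF4 target, went another way. It was higher in the *VEGFC-LNC* controls (44.2 ± 0.76 FPKM, SD, n = 2) than in the *VEGFA-LNC* controls (30.02 ± 0.873 FPKM, SD, n = 2), and it reached 57.5 FPKM in the first *VEGFA-LNC* deletion clone and 26.99 and 27.07 FPKM in the 2 others.

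Of the secreted factors, *GDF15*, a stress hormone of the TGF-β family, was among the most abundant. It was expressed at 183 and 188 FPKM in the *VEGFA-LNC* controls and at 144, 176 and 161 FPKM in the clones, and at 56.5 and 58.8 FPKM in the *VEGFC-LNC* controls and at 110, 126 and 93.9 FPKM in the clones. All *VEGFC-LNC* deletion clones lay above their controls and below all *VEGFA-LNC* libraries. Upon *VEGFC-LNC* deletion it rose by 0.92 on the log2 scale (SE 0.15, FDR 0.0467), a call that held in 5 of 19 alternatives, whose FDRs ran from 0.0117 to 0.937. Leaving out the third *VEGFC-LNC* deletion clone or the first or second *VEGFA-LNC* deletion clone kept it, and leaving out any other library lost it. Upon *VEGFA-LNC* deletion the log2 FC was −0.22 (95% interval −0.57 to 0.13), within a stretch of chromosome 19 whose 232 other tested genes had a median of −0.32. *STC2*, a secreted glycoprotein induced by endoplasmic reticulum stress, had 15.7 and 16.5 FPKM in the *VEGFA-LNC* controls and 13.5, 2.63 and 5.44 FPKM in the clones, with a log2 FC of −1.45 (95% interval −2.71 to −0.20, FDR 0.194). The first clone stayed near the controls and the 2 others were far lower. In the *VEGFC-LNC* set *STC2* was at 4.86 and 4.499 FPKM in the controls and at 7.01, 8.28 and 4.56 FPKM in the clones. *VLDLR*, a lipoprotein receptor, had at most 3 reads in any library.

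The enzymes that make serine and move its one-carbon unit through mitochondria showed another pattern, in which clones of the same deletion differed from each other. *PHGDH*, which starts serine synthesis from glycolysis, was at 15.3 and 13.2 FPKM in the *VEGFA-LNC* controls and at 41.5, 5.72 and 8.62 FPKM in clones 1, 2 and 3. In the *VEGFC-LNC* set it was at 21.5 and 19.3 FPKM in the controls and at 32.6, 34.5 and 8.89 FPKM in the clones. The first *VEGFA-LNC* deletion clone lay above its controls and the 2 others below, and the first and second *VEGFC-LNC* deletion clones lay above their controls and the third below. The highest of the clones had 7.26 times the level of the lowest in the *VEGFA-LNC* set and 3.88 times in the *VEGFC-LNC* set, where controls of a set differed by at most 1.16 times.

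*PSAT1*, the next enzyme of serine synthesis, repeated this order at 35.5, 6.95 and 10.1 FPKM upon *VEGFA-LNC* deletion and at 33.7, 38.5 and 8.30 FPKM upon *VEGFC-LNC* deletion, against 16.3 to 18.6 FPKM in the 4 controls. *MTHFD2*, the mitochondrial folate enzyme, was at 52.6 and 51.9 FPKM in the *VEGFA-LNC* controls, at 68.5, 28.5 and 39.0 FPKM in the clones, at 31.8 and 30.8 FPKM in the *VEGFC-LNC* controls and at 52.2, 55.6 and 24.5 FPKM in the clones. *SHMT2*, which splits serine to glycine in mitochondria, ranged from 29.2 FPKM in the second *VEGFA-LNC* deletion clone to 80.9 FPKM in the first. *ALDH1L2*, which ends the mitochondrial folate path, was low throughout, at 1.67 and 1.61 FPKM in the *VEGFA-LNC* controls, 1.15, 0.498 and 0.651 FPKM in the clones, 0.771 and 0.715 FPKM in the *VEGFC-LNC* controls and 1.95, 3.12 and 0.691 FPKM in the clones. *PSPH*, the last step of serine synthesis, ranged from 4.48 to 12.7 FPKM. In each of the 6 enzymes the first *VEGFA-LNC* deletion clone was the highest of its set, the third was in the middle and the second the lowest, and the third *VEGFC-LNC* deletion clone was the lowest of its set. None of the 6 was called in any comparison, and none had an unadjusted p under 0.05 upon either deletion. Their log2 FCs ran from −1.08 to −0.16 upon *VEGFA-LNC* deletion and from −0.10 to 1.04 upon *VEGFC-LNC* deletion, and the 95% interval for *PHGDH* upon *VEGFA-LNC* deletion reached from −2.01 to 1.70.

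**Figure D3:**
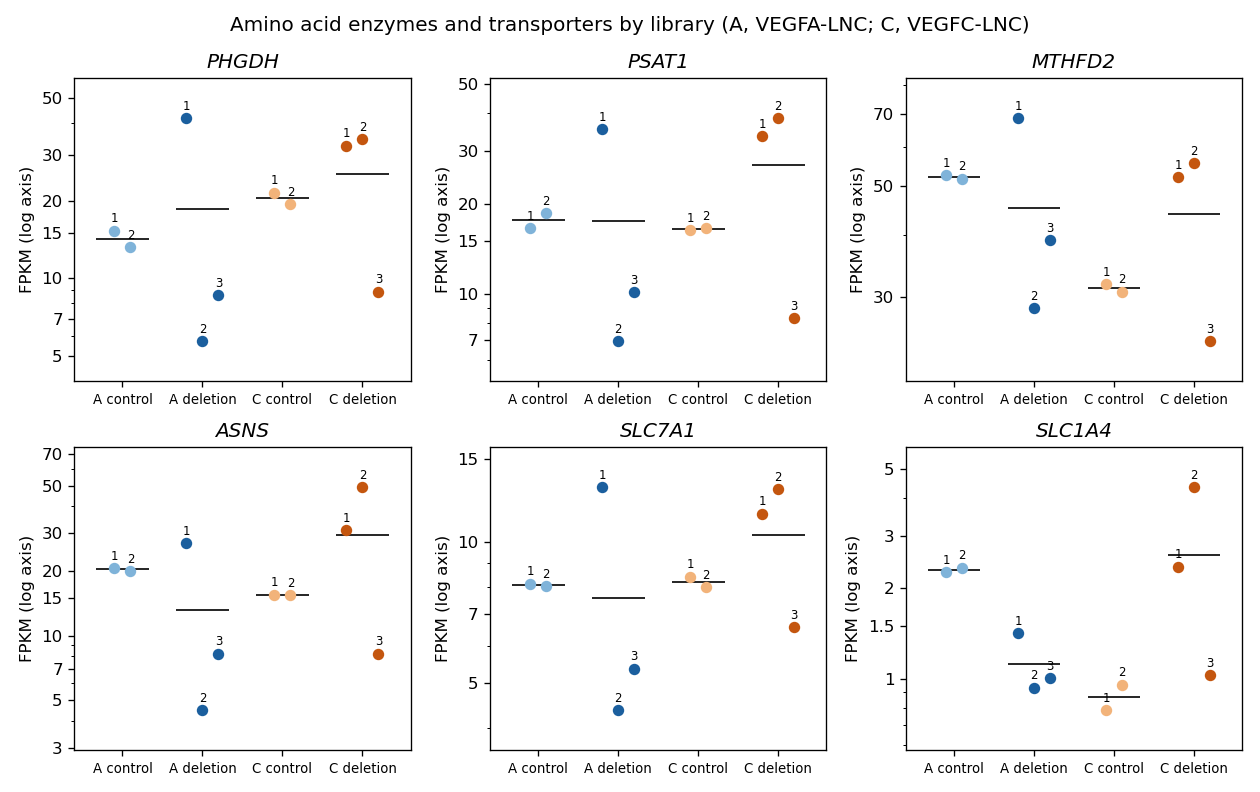
Levels of the enzyme genes *PHGDH*, *PSAT1*, *MTHFD2* and *ASNS* and the transporter genes *SLC7A1* and *SLC1A4* in FPKM on a log axis, with 1 point per library (numbered by replicate) and a line at the mean of each group. Except for *SLC1A4*, the first *VEGFA-LNC* deletion clone lies above its controls and the 2 others below, and in all 6 panels the third *VEGFC-LNC* deletion clone lies below the first and second.

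*ASNS*, which makes asparagine and is the classical target of the amino acid response, spread as widely. It was at 20.7 and 20.0 FPKM in the *VEGFA-LNC* controls and at 26.9, 4.49 and 8.23 FPKM in the clones, and at 15.5 and 15.5 FPKM in the *VEGFC-LNC* controls and at 31.0, 48.9 and 8.24 FPKM in the clones. The SD between clones, on the log2 scale, was 1.30 in the *VEGFA-LNC* set, larger than in 96.1% of all tested genes, and 1.33 in the *VEGFC-LNC* set, larger than in 99.3%. The log2 FC was −1.02 (95% interval −2.87 to 0.83) upon *VEGFA-LNC* deletion and 0.58 (−1.27 to 2.43) upon *VEGFC-LNC* deletion, so that changes of several fold in either direction fall within the intervals. *CBS*, the first enzyme of transsulfuration, was at 2.64 and 2.55 FPKM in the *VEGFA-LNC* controls, 3.27, 2.51 and 3.42 FPKM in the clones, 2.499 and 2.22 FPKM in the *VEGFC-LNC* controls and 5.87, 7.95 and 2.60 FPKM in the clones. All *VEGFC-LNC* deletion clones lay above their controls, the third only just, and the log2 FC of 1.04 had an FDR of 0.221. *PCK2*, a mitochondrial enzyme that makes phosphoenolpyruvate, and *PYCR1*, an enzyme of proline synthesis, were higher in each *VEGFC-LNC* deletion clone than in both controls, with log2 FCs of 0.97 and 0.43 and FDRs of 0.155 and 0.402. *CTH*, the second enzyme of transsulfuration, stayed between 0.434 and 1.58 FPKM. None of these 5 enzymes was called in any comparison.

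Of the 4 amino acid transporters, *SLC3A2*, the shared heavy chain of several exchangers, resembled the stress regulators more than the enzymes. It was at 161 and 171 FPKM in the *VEGFA-LNC* controls, at 77.1, 78.2 and 63.9 FPKM in the clones, at 44.5 and 44.7 FPKM in the *VEGFC-LNC* controls and at 83.5, 78.2 and 37.6 FPKM in the clones. All *VEGFA-LNC* deletion clones lay below both controls, with a log2 FC of −1.19 (SE 0.30) that did not pass the test (FDR 0.0758). The control sets differed by −1.89 (SE 0.33, FDR 0.0121). *SLC1A4*, a carrier of serine and other neutral amino acids, was at 2.26 and 2.35 FPKM in the *VEGFA-LNC* controls, 1.42, 0.934 and 1.00 FPKM in the clones, 0.785 and 0.956 FPKM in the *VEGFC-LNC* controls and 2.36, 4.34 and 1.03 FPKM in the clones. The clones did not overlap their controls in either set, but neither difference passed the test, with 95% intervals of the log2 FC from −2.09 to 0.09 (FDR 0.289) and from 0.17 to 2.34 (FDR 0.223). *SLC7A1*, the cationic amino acid carrier that imports arginine, followed the order of the serine enzymes at 13.1, 4.37 and 5.35 FPKM upon *VEGFA-LNC* deletion and 11.5, 13.0 and 6.58 FPKM upon *VEGFC-LNC* deletion, against 7.99 to 8.42 FPKM in the 4 controls. *SLC1A5*, the glutamine carrier, had log2 FCs of −0.43 and 0.31, neither of which passed the test.

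The 8 cytosolic aminoacyl-tRNA synthetases, which load tRNAs with their amino acids, varied less from clone to clone than the serine and one-carbon enzymes, with a median SD of 0.38 and 0.28 on the log2 scale in the *VEGFA-LNC* and *VEGFC-LNC* sets. Their log2 FCs ran from −0.66 (*GARS*) to −0.04 (*WARS*) upon *VEGFA-LNC* deletion and from −0.19 (*EPRS*) to 0.58 (*WARS*) upon *VEGFC-LNC* deletion, and none was called upon either deletion. *SARS*, the synthetase for serine, was at 70.3 and 67.8 FPKM in the *VEGFA-LNC* controls, 50.9, 51.5 and 57.0 FPKM in the clones, 42.3 and 41.8 FPKM in the *VEGFC-LNC* controls and 60.2, 66.8 and 53.1 FPKM in the clones. Its clones did not overlap their controls in either set, and the control sets differed by −0.72 (SE 0.14, FDR 0.0163). *WARS*, the synthetase for tryptophan, was higher in each *VEGFC-LNC* deletion clone (61.5, 59.6 and 50.8 FPKM) than in both controls (37.8 and 38.7 FPKM), with an FDR of 0.0846. *GARS*, for glycine, and *EPRS*, for glutamate and proline, lay below both controls in all *VEGFA-LNC* deletion clones, with FDRs of 0.203 and 0.28. *YARS*, for tyrosine, did so in clones 2 and 3 (FDR 0.392). *NARS*, *TARS* and *IARS*, for asparagine, threonine and isoleucine, had log2 FCs between −0.28 and 0.19 upon the 2 deletions. The third *VEGFC-LNC* deletion clone was the lowest of its set in all 8 synthetases.

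The order of the clones was shared across most of the response. The third *VEGFC-LNC* deletion clone was the lowest of its set in 33 of 36 genes, where it was the lowest in 24.8% of all tested genes, and the second was the highest in 25, against 18.6% of all tested genes. In the *VEGFA-LNC* set, the first clone was above the third and the third above the second in 23 of 36 genes (63.9%), against 31.7% of all tested genes. Both orders held together in 21 of 36 genes (58.3%), against 8.77% of all tested genes. They held in 6 of 6 serine and one-carbon enzymes, 6 of 8 synthetases, 3 of 4 transporters and 3 of 5 other enzymes, and in 1 of 6 transcription factors and 1 of 5 feedback and stress effectors. These orders were noticed in the data and carry no test, and the genes share their libraries. The keratin genes *KRT8* (348, 128 and 198 FPKM in clones 1, 2 and 3) and *KRT18* (436, 126 and 193 FPKM) had the same order in the *VEGFA-LNC* set. *PECAM1* and *VWF* (0.65, 8.78 and 4.74 FPKM) had the reverse one there. In the *VEGFC-LNC* set, *KRT8* (175, 95.2 and 146 FPKM) and *KRT18* (189, 101 and 136 FPKM) were lowest in the second clone instead. *PECAM1* (16.5, 46.1 and 53.2 FPKM) and *VWF* (0.716, 3.41 and 3.88 FPKM) were highest in the third. The part of these genes in the result was not tested. The third *VEGFC-LNC* deletion clone also had the smallest library, and the part of depth in its low values was not tested.

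Set against their own controls, the median log2 difference of the 36 genes was −0.02, −0.87 and −0.59 in *VEGFA-LNC* deletion clones 1, 2 and 3, and 0.61, 0.71 and −0.09 in *VEGFC-LNC* deletion clones 1, 2 and 3. The same medians over all tested genes lay between −0.16 and −0.03. In the second *VEGFA-LNC* deletion clone all 36 genes were below the mean of the controls, and in the first 17 of the 36 were above it. All 6 tested transcription factors and both tested secreted factors lay below the mean of the controls in each of the 3 *VEGFA-LNC* deletion clones. The median SD between clones was 0.39 and 0.43 on the log2 scale for the 36 genes and 0.74 and 0.87 for the serine and one-carbon enzymes in the *VEGFA-LNC* and *VEGFC-LNC* sets, against 0.29 and 0.25 for all tested genes. The controls lay closer together, with a median SD of 0.04 for the 36 genes in both sets and of 0.07 and 0.06 for all tested genes.

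**Figure D4:**
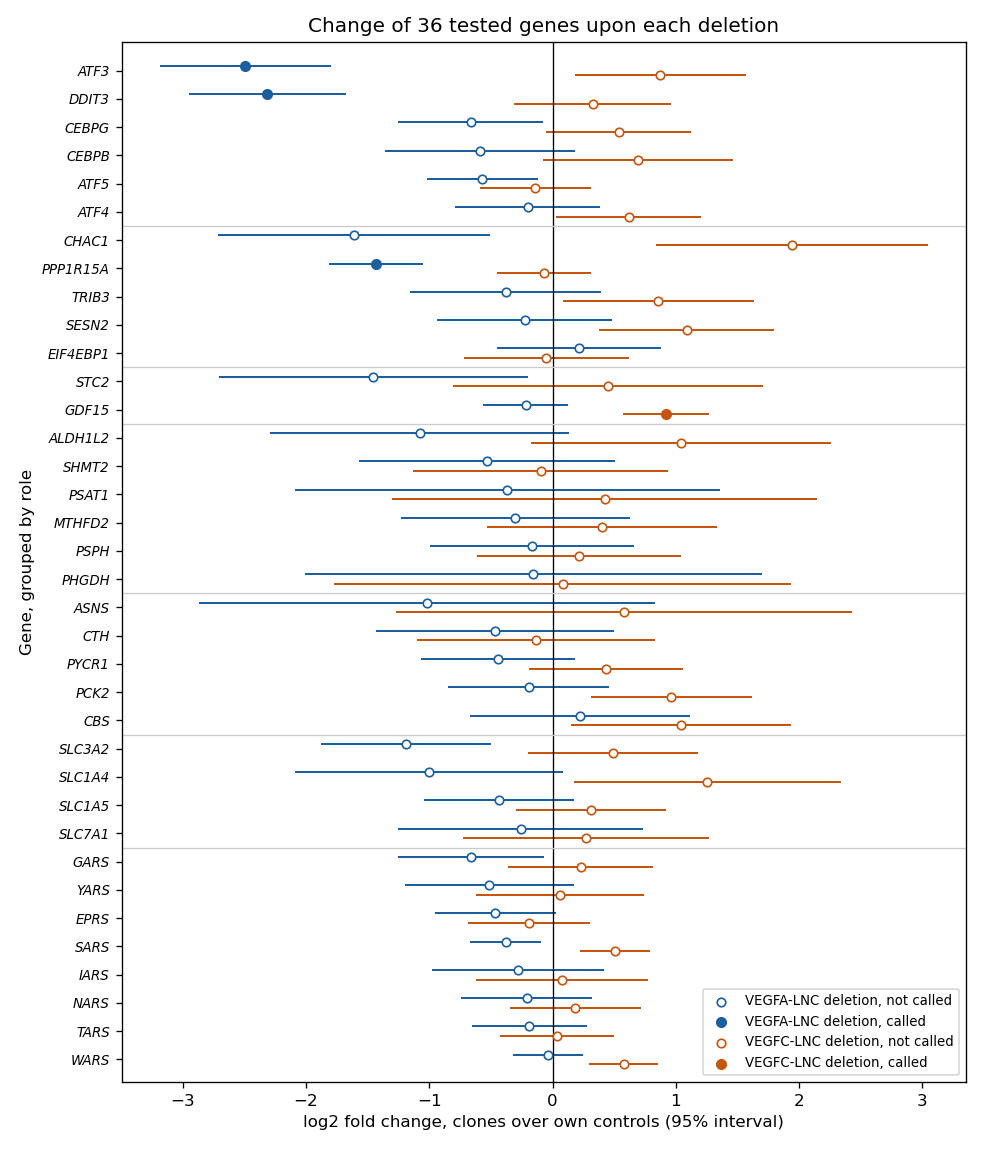
Log2 FC of the 36 tested genes (grouped by role, with lines between roles) in *VEGFA-LNC* deletion clones (blue) and *VEGFC-LNC* deletion clones (orange) over their own controls, with 95% intervals from limma. Filled points mark the called genes, *ATF3*, *DDIT3* and *PPP1R15A* for *VEGFA-LNC* and *GDF15* for *VEGFC-LNC*, and the intervals of *ASNS*, *PHGDH* and *PSAT1* are the widest.

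The effect of the *VEGFC-LNC* deletion minus that of the *VEGFA-LNC* deletion was tested in the same fit. It was positive in 35 of 36 genes and in 6259 of all 13333 tested genes. Its median on the log2 scale was 0.85 for the 36 genes and −0.04 for all tested genes. It was called for 5 of the 36, where 0.863% of all tested genes were called in this direction. These were *CHAC1* (3.55), *ATF3* (3.37, FDR 0.0122), *DDIT3* (2.64, FDR 0.0196), *PPP1R15A* (1.37, FDR 0.0313) and *GDF15* (1.14, FDR 0.0441). This difference contains the difference between the control sets, which was itself called for all 5. *SARS* missed the threshold with a difference of 0.89 (FDR 0.0551). The largest differences that were not called belonged to *SLC1A4* (2.26, FDR 0.137) and *ALDH1L2* (2.12, FDR 0.19).

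Other genes around the response gave few calls. The 13 genes for eIF2, its exchange factor eIF2B, its kinases and the phosphatase subunit *PPP1R15B* gave 0 calls in limma in all comparisons, with medians of −0.09 and −0.01 upon *VEGFA-LNC* and *VEGFC-LNC* deletion and with 0 and 1 of them at an unadjusted p under 0.05. Of 25 further ATF4 or CHOP targets, 18 were tested. *MAP1LC3B*, an autophagosome protein, was at 144 and 153 FPKM in the *VEGFA-LNC* controls and at 66.2, 90.8 and 80.8 FPKM in the clones, and was the only one called upon *VEGFA-LNC* deletion, with a log2 FC of −0.92 (FDR 0.0202). Of all tested genes, 2.02% were called lower there. Upon *VEGFC-LNC* deletion none of the 18 was called, and all clones lay above both controls in 12 of them, against 17.2% of all tested genes. *INHBE*, an activin subunit, had the highest value, 2.86 (FDR 0.058), from 0 and 0.067 FPKM in the controls and 1.78, 0.528 and 0.603 FPKM in the clones. *MAP1LC3B*, the autophagy receptor gene *SQSTM1* and *VEGFA*, the growth factor gene within which *VEGFA-LNC* starts on the other strand, were called lower in the *VEGFC-LNC* than in the *VEGFA-LNC* controls, with log2 differences of −1.73, −1.19 and −1.46. These were 3 of the 18, where 9.76% of all tested genes were called lower. *VEGFA* was at 10.2 and 9.62 FPKM in the *VEGFA-LNC* controls, 4.68, 4.71 and 7.35 FPKM in the clones, 3.23 and 3.84 FPKM in the *VEGFC-LNC* controls and 8.85, 7.83 and 5.25 FPKM in the clones. Its clones lay below both controls upon *VEGFA-LNC* deletion and above both upon *VEGFC-LNC* deletion, with log2 FCs of −0.85 (FDR 0.13) and 1.00 (FDR 0.127) that did not pass the test. The paper reports the other direction for *VEGFA-LNC*. There, *VEGFA* rose in RT-qPCR upon the deletion and upon knockdown with antisense oligonucleotides. *VEGFA* was not among the differentially expressed genes of the paper's RNA-Seq.

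Of 18 genes of the ATF6 and XBP1 branches, which answer to unfolded proteins in the endoplasmic reticulum, 5 were called lower in the *VEGFC-LNC* than in the *VEGFA-LNC* controls, namely *ERN1*, *XBP1*, *HERPUD1*, *DNAJB9* and *DNAJC3*, against 9.76% of all tested genes, and none upon either deletion. *XBP1* was at 42.8 and 46.1 FPKM in the *VEGFA-LNC* controls, 26.6, 29.4 and 32.5 FPKM in the clones, 19.1 and 19.7 FPKM in the *VEGFC-LNC* controls and 34.3, 32.9 and 25.0 FPKM in the clones. Its effects differed between the deletions by 1.24 (FDR 0.0372), and the clones of both deletions lay between the 2 control sets, as they did for *ATF3*. *HSPA5*, the main chaperone of this compartment, was not called, with 270 and 258 FPKM in the *VEGFA-LNC* controls and 232 and 224 FPKM in the *VEGFC-LNC* controls. Of the 12 other cytosolic synthetases, *CARS* alone was called, lower in the *VEGFC-LNC* controls (log2 difference −1.18, FDR 0.0307), where 9.76% of all tested genes were called lower. Of the 17 mitochondrial synthetases, 16 had a mean below the controls upon *VEGFC-LNC* deletion (median log2 FC −0.29), and none was called there. The 10 other enzymes of one-carbon, folate and glycine metabolism had medians of 0.00 and −0.53 upon the 2 deletions. Between the control sets, 9 of the 10 had the higher mean in the *VEGFC-LNC* controls, with a median log2 difference of 0.66. *MTR*, methionine synthase, was the only one called there (1.00, FDR 0.0139), where 389 of all 13333 tested genes were called higher.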

How the data were processed

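The authors deposited a table of FPKM values per RefSeq transcript on hg19, made from single-end 75-base reads of rRNA-depleted total RNA. The study's methods and processing notes name Trim Galore 0.4.4, STAR 2.5.4b and featureCounts, but how this table was made is not given in the sources used here. Groups came from the sample labels, and all 10 libraries were mapped. From the table, 42 of 65572 rows (0.0641%) had no gene symbol and were left out, and 1 transcript was kept per symbol, that with the highest mean. FPKM multiplied by length gave whole reads (within 0.1 of a read), from which library sizes were recovered. These cover counting error only.

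The tests were made in R 4.3.3 with limma 3.58.1 (lmFit, and eBayes with a trend) on log2(FPKM + 0.1), with 6 residual degrees of freedom and a median of 2.8 prior ones. The clones of a deletion were set against the 2 controls of the same set, the 2 control sets against each other, and the effect of 1 deletion against that of the other. The study tested counts in edgeR, which was not run here. The test was made on the deposited unit, and the recovered reads were tested with voom as an alternative. On simulated data with an 8-fold change of 200 of 13333 genes upon *VEGFA-LNC* deletion, 198 (99%) were recovered, with 5 false calls. No call was made where no gene was changed. The simulated reads had the same spread in every group and no difference between the control sets. In the data the controls lay closer together than the clones, so that the simulation does not show how reliable the calls are. Genes within 10 Mb were taken for the neighborhood of a gene. Promoter windows were taken by gene symbol, and symbols were matched by RefSeq accession. Python 3.11.15 with pandas 2.3.3 was used for the rest.

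The members, the other gene lists and the tests were chosen with earlier results of these data known. Values are given per library for each gene of the response called in any contrast, for *ATF4*, *ATF3*, *DDIT3*, *CHAC1*, *ASNS* and *TRIB3*, and for genes with non-overlapping groups and a log2 FC of at least 1 upon either deletion. Values of *PHGDH*, *PSAT1*, *MTHFD2*, *SLC7A1*, *WARS* and *MARS* were added after they had been seen. Values of some genes on the lists are not reported here. Alternatives changed the pseudocount, filter, scaling, transcript choice, error model, replicate block, treatment of controls and libraries used.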

Additional observations from a re-analysis of the deposited data

Results flagged for a closer look

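For 5 of the 36 genes the effect of the *VEGFC-LNC* deletion differed from that of the *VEGFA-LNC* deletion in the test of the difference itself in limma. The log2 FC upon *VEGFC-LNC* deletion minus that upon *VEGFA-LNC* deletion was 3.37 for *ATF3*, 2.64 for *DDIT3*, 3.55 for *CHAC1*, 1.14 for *GDF15* and 1.37 for *PPP1R15A*. All 3 *VEGFA-LNC* deletion clones lay below their controls for all 5 genes. All 3 *VEGFC-LNC* deletion clones lay above theirs for *ATF3*, *CHAC1* and *GDF15*, and for *DDIT3* and *PPP1R15A* they overlapped. The difference held its call in 12 of 17 alternatives for *ATF3*, 11 for *DDIT3*, 8 for *PPP1R15A*, 7 for *GDF15* and 6 for *CHAC1*. Leaving out any 1 of the 4 controls ended all 5 calls. In all 5 genes the controls differed as well, with log2 values of −4.25, −3.41, −2.91, −1.69 and −2.34 for the *VEGFC-LNC* controls against the *VEGFA-LNC* controls in the same order of genes, so that the levels of the controls and the effects of the deletions cannot be told apart in this difference.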

How the results depend on the processing

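The calls rest on the 2 controls of each set. With each pair of controls counted as 1 sample, 0 of the 36 genes were called in any of the 4 comparisons, and 4, 5, 9 and 7 had an unadjusted p under 0.05 upon *VEGFA-LNC* deletion, upon *VEGFC-LNC* deletion, between the control sets and in the difference of effects. With only the groups compared in the fit, 0, 0 and 20 were called in the first 3 of these, where 20, 26 and 4401 of all 13333 genes were called, against 367, 63 and 1690 with all groups. With all 4 controls as 1 group, 0 were called upon either deletion, where 29 and 55 of all genes were called. Leaving out 1 library at a time gave 0 to 8 calls upon *VEGFA-LNC* deletion, 0 to 4 upon *VEGFC-LNC* deletion, 4 to 14 between the control sets and 0 to 11 in the difference. The highest counts came without the first *VEGFA-LNC* deletion clone, where *ATF5*, *SLC3A2*, *STC2*, *GARS* and *EPRS* joined the 3 genes called upon *VEGFA-LNC* deletion and 1732 of all genes were called, and for the difference without the third *VEGFC-LNC* deletion clone. The counts over all genes moved as well. Without 1 deletion clone they ran from 108 to 1732, 23 to 1158, 1435 to 3068 and 117 to 694 in the 4 comparisons. Without 1 control the lone library of that set is assumed to vary like the other groups, and without any 1 of the 4 controls, 4 were called between the control sets. Upon *VEGFC-LNC* deletion the call of *GDF15* was lost (0 called) with a pseudocount of 1, with no filter on low values and with scaling by the median of ratios. The voom test of recovered reads called 3, 1, 9 and 5 of the 36 and 551, 56, 1680 and 214 of all genes in the 4 comparisons. The replicate numbers showed no pairing of the samples (correlations of same-numbered libraries from −0.04 to 0.05). With 2 controls per set, whose deviations from their mean mirror each other, this check could show little. With the number as a replicate block, 3, 0, 10 and 1 of the 36 genes were called in the 4 comparisons. Of all genes, 151, 20, 1628 and 86 were called. Scaling by the median of ratios moved the split of all called genes from 389 higher and 1301 lower to 587 and 906 between the control sets and from 20 and 43 to 38 and 44 upon *VEGFC-LNC* deletion. Over the genes given per library under the rule, the 4 comparisons and these alternatives, no called value changed sign, 99 lost a call, 28 gained one and 31 without a call moved by more than their SE, while 1010 did none of these. At 15 to 30 reads, *CHAC1* in the *VEGFC-LNC* controls was the called gene most limited by depth.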

Other observations

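Genes next to the response, chosen after their values were seen, also differed from clone to clone. *SLC7A11*, the cystine carrier, was at 25.1 and 26.04 FPKM in the *VEGFA-LNC* controls, 11.3, 26.3 and 9.48 FPKM in the clones, 12.4 and 12.7 FPKM in the *VEGFC-LNC* controls and 29.0, 45.1 and 13.4 FPKM in the clones. *SLC7A5*, the leucine carrier, was at 24.0, 5.61 and 7.92 FPKM upon *VEGFA-LNC* deletion and at 13.3, 11.3 and 4.44 FPKM upon *VEGFC-LNC* deletion, the order of the serine enzymes in the first set and with the same lowest clone in the second. *DDIT4*, an inhibitor of mTORC1, had the reverse order in the *VEGFA-LNC* set, at 2.66, 13.5 and 10.45 FPKM, against 5.87 and 6.45 FPKM in the controls.

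*EIF2B2*, a subunit of the eIF2B exchange factor that eIF2α phosphorylation inhibits, was at 32.3 and 34.2 FPKM in the *VEGFA-LNC* controls and at 38.3 and 35.2 FPKM in the *VEGFC-LNC* controls. In the clones it was at 23.8, 124 and 89.6 FPKM upon *VEGFA-LNC* deletion and at 46.9, 110 and 187 FPKM upon *VEGFC-LNC* deletion. It was the highest in both deletions of the 13 regulators examined, with log2 FCs of 0.95 and 1.42, but passed the test in neither (FDR 0.508 and 0.307).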
